A study of Mus musculus with 2 samples.

Results

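The histone, U1 and tRNA gene cluster of mouse chromosome 3 was examined as all 1200 consecutive windows of 500 bp between positions 95950001 and 96550000 of the mm9 assembly, of 5309835 such windows in the genome. The windows are defined by position. Read depth was compared between 1 chromatin immunoprecipitation sequencing (ChIP-seq) library made with rabbit serum against LUZP1, a leucine zipper protein, and 1 mock library. Both came from E14, a feeder-free mouse embryonic stem cell line of the 129P2/OlaHsd strain at passages 25 to 30, with 300 µg of chromatin per precipitation. The sample labels say that the mock had no antibody, the series' design text says that it had GST, and a GCN5 precipitation was not analysed here. The series concerns the coactivators ATAC and Mediator at non-coding RNA genes, and the comparison asks where along this cluster LUZP1 reads exceeded mock reads.

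The LUZP1 library held 4214959 reads and the mock library 2734938, or 1.59 and 1.03 reads per kb of genome. Each read was lengthened to 200 bp, starting at its 5′ end, and assigned to the position of its midpoint. A ratio is the LUZP1 count over the mock count after scaling to the total reads, with a 95% interval from the exact binomial (Clopper-Pearson) limits of the counts. With 1 library per group there is no replicate check, no test and no p-value, and the intervals cover counting error alone. Where a pair of reads marks the ends of 1 fragment, the reads are not independent and an interval is narrower than it should be. A count of 0 allows up to 3 reads, and where the mock had 0 reads the lower bound of the interval is given in place of a ratio.

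Histone, U1 and tRNA genes lie together here, and different machinery transcribes them. U1 small nuclear RNA pairs with the start of introns during splicing, and its genes are transcribed by RNA polymerase II from short promoters with a proximal sequence element. Transfer RNA genes are transcribed by RNA polymerase III, and their promoter lies within the gene as the A box and the B box, which transcription factor TFIIIC binds. Replication-dependent histone genes are small genes of RNA polymerase II that are active as DNA is copied. ATAC acetylates histones, and Mediator carries signals from bound activators to RNA polymerase II.

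The annotation held 10 histone genes, counting Hist2h3c2, which it lists as a pseudogene, 8 U1 copies and 34 other genes in the interval. It held no tRNA genes, so tRNA-like sequences were searched for by their A box, B box and paired arms. The 25 found matched the 25 tRNA genes of the RefSeq table between Fcgr1 and Hfe2 in order, anticodon and length, and carry those names below. The histone genes lie between 73 and 133 kb from the left end, and the U1 and tRNA genes follow from 176 kb to 355 kb.

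The sequences below are those on which the reads at U1 and tRNA genes turn, each 5′ to 3′ on the gene's strand in mm9. The 8 U1 copies were 95.8% to 100% identical over 28 pairs (median 98.8%). Shown are the copy under the authors' peak (Gm24830, chr3:96132348-96132513, plus strand), which 2 other copies repeat letter for letter, a copy with no read (Rnu1b1, chr3:96163876-96164040, minus strand) and the most divergent copy (Gm24136, chr3:96226656-96226820, plus strand). Capitals mark the bases from base 3 that pair with the end of the exon and the start of the intron.
Gm24830: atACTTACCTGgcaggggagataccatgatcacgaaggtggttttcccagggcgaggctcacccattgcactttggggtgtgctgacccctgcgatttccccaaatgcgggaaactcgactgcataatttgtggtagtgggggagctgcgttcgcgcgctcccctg
Rnu1b1: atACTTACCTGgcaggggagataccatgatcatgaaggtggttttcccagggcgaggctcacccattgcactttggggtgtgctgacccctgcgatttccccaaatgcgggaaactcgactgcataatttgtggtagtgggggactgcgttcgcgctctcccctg
Gm24136: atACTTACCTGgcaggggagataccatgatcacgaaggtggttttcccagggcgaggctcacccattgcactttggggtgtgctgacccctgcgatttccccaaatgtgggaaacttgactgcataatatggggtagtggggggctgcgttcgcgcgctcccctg

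The tRNA genes shown are the 2 with an interval above 1 and 2 of the 4 in which scaled mock counts were higher. Capitals mark the A box, the anticodon and the B box, in that order. The asparagine tRNA gene n-TNgtt10 (chr3:96206141-96206214, plus strand) is printed with the bases before it, from the start of the divergent non-coding gene 4930477E14Rik, so that the run covers chr3:96205938-96206214. The others are a lysine tRNA gene (n-TKctt16, chr3:96303435-96303507, minus strand) and 2 histidine tRNA genes (n-THgtg8, chr3:96304289-96304360, and n-THgtg1, chr3:96267895-96267966, both on the minus strand).
n-TNgtt10 with upstream: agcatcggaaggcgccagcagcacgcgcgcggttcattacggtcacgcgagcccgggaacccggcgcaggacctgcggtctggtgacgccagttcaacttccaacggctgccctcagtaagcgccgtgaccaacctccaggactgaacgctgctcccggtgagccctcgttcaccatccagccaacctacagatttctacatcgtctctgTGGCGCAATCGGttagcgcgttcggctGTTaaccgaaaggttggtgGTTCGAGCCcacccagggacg
n-TKctt16: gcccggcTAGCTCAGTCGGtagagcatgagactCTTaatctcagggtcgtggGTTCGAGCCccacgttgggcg
n-THgtg8: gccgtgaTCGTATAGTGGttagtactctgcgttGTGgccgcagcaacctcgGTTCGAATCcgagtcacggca
n-THgtg1: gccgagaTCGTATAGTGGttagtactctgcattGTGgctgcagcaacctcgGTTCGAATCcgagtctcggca

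The 25 tRNA genes had 14 distinct sequences. The run shown for n-TNgtt10 was shared, within the gene, by 4 genes (n-TNgtt10, n-TNgtt11, n-TNgtt12 and n-TNgtt13). The sequence of n-THgtg8 was also that of n-THgtg6, n-THgtg7 and n-THgtg9, and n-TKctt15 and n-TKctt16 were identical. A run of 4 T (TTTT), the letters at which RNA polymerase III stops, began within 50 bp after 22 of the 25 genes on the gene's strand. For comparison, 24.3% of 12000 windows of 50 bp tiling the interval held TTTT on 1 strand and 40.4% on either strand.

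Read depth over the whole cluster was slightly higher with LUZP1. The 600 kb held 1537 LUZP1 and 867 mock midpoints, or 2.56 and 1.45 per kb, and the mock level scaled to LUZP1 depth was 2.23 per kb. The ratio was 1.15 (95% interval 1.06 to 1.25). The rest of chromosome 3 had a ratio of 0.956 (0.95 to 0.962), and the cluster's ratio was 1.20 times that (1.11 to 1.31). The histone cluster of chromosome 13 had a ratio of 1.12 (1.06 to 1.18), and the difference between the clusters was within counting error (1.03 times, 0.932 to 1.14). GC content moved with this difference. Windows of the genome with the same GC content as those of the cluster had a ratio of 1.12, and against these the cluster's ratio was 1.03 (0.944 to 1.12), an interval that includes 1.

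**Figure D1:**
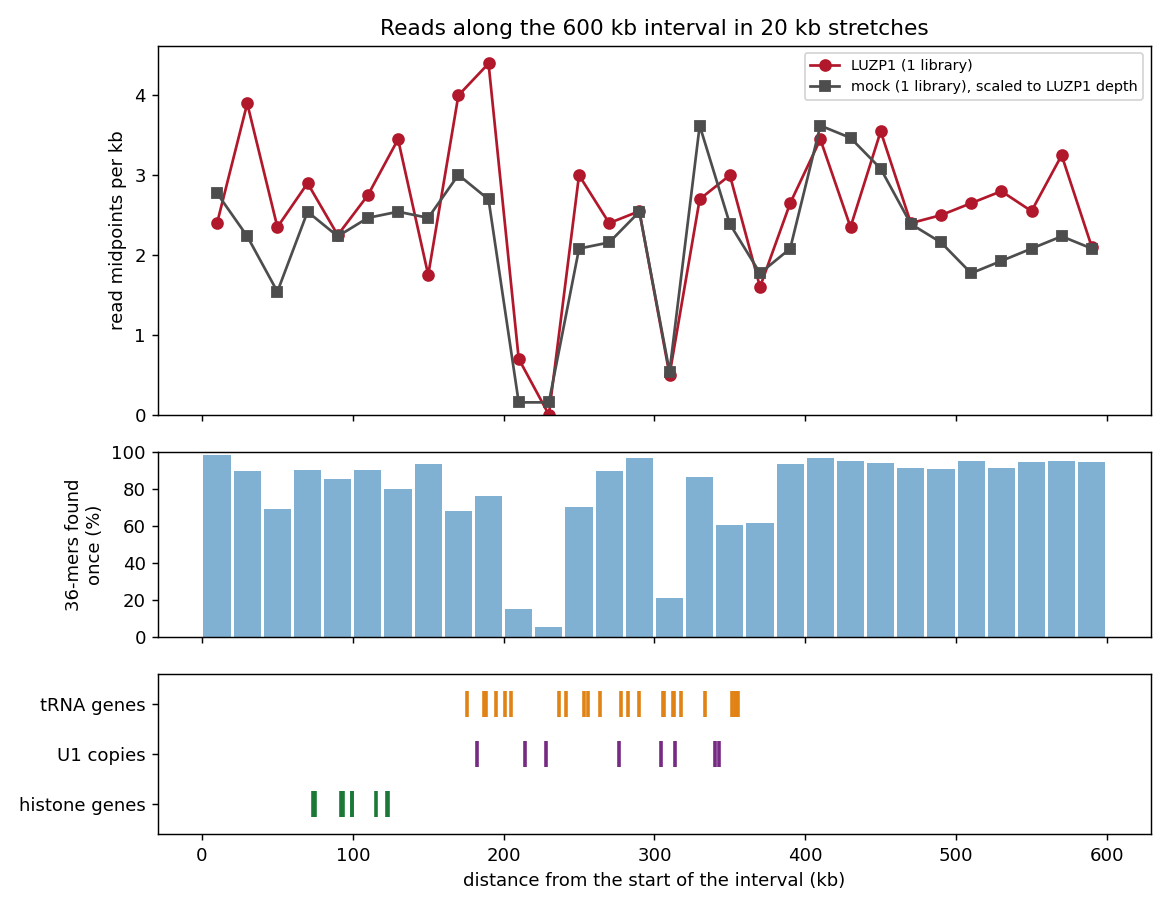
Read midpoints per kb in 20 kb stretches (top: LUZP1, red; mock scaled to LUZP1 depth, grey; 1 library each), the share of 36-mers found in the genome in a single place (middle, percent) and gene positions (bottom), against distance from the left end in kb. Both libraries drop together at 200 to 240 kb, where 14.8% and 5.28% of 36-mers were unique, and at 300 to 320 kb, where 20.9% were.

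The depth of both libraries followed how much of the sequence occurs in a single place. In the cluster 79.5% of 36-base sequences (36-mers, the read length) were unique in mm9. Among windows with fewer than 10% unique 36-mers, 139 of 143 had no midpoint in either library, and the 143 together held 2 LUZP1 and 3 mock midpoints. In the 489 windows that were wholly unique, LUZP1 had 3.01 and mock 1.75 midpoints per kb. Of the reads deposited in the cluster, 0.130% of LUZP1 reads and 0 of the mock reads lay on a repeated 36-mer. In all, 326 windows had no midpoint in either library.

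**Figure D2:**
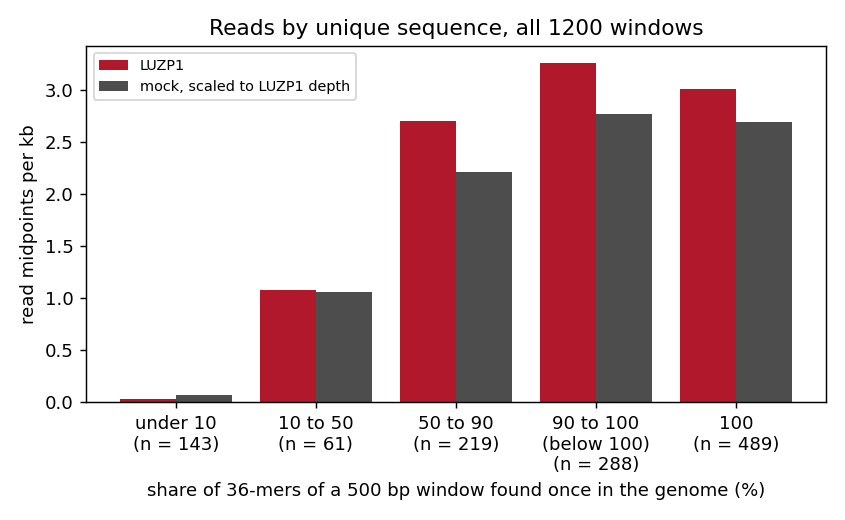
LUZP1 midpoints per kb (red) and mock midpoints per kb scaled to LUZP1 depth (grey) in windows grouped by the share of their 36-mers found in a single place in the genome (percent, number of windows below each pair). Windows under 10% unique were nearly empty in both libraries (0.0280 and 0.0647 per kb), and wholly unique windows had 3.01 and 2.69.

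The stretches with the fewest reads overlapped inverted repeats, in which a sequence recurs on the opposite strand. The longest pair of arms, 21.4 and 20.8 kb, ran from 96143360 to 96164788 and from 96177196 to 96197964. It held the U1 copies Rnu1b1 and Rnu1b2, both n-TEttc genes and the identical glycine tRNA genes n-TGccc5 and n-TGccc1, and its left arm also n-TQctg5. A second pair, each arm 7.57 kb, held the U1 copies LOC115489800 and Rnu1b6 and the genes n-TNgtt11, n-TNgtt13, n-THgtg7 and n-THgtg9. The shortest pair, 2.08 kb each, held the histone genes Hist2h2aa2 and Hist2h3c2 in one arm and Hist2h2aa1 and Hist2h3c1 in the other. The arms were not identical throughout: in the order given, 76.1%, 89.1% and 59.2% of the left arm's 36-mers recurred in the right arm. Reads of 36 bp from a sequence that recurs cannot be placed in a single copy, so no statement about LUZP1 is made for the genes without reads.

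Among the kinds of gene, tRNA windows stood highest relative to mock with an interval that left out 1. The 68 windows at or within 500 bp of a tRNA gene held 134 LUZP1 and 52 mock midpoints, a ratio of 1.67 (1.21 to 2.35). All other windows of the cluster had a ratio of 1.12 (1.02 to 1.22), so the tRNA windows were 1.5 times higher (1.07 to 2.13). The 30 U1 windows held 24 and 11 midpoints, a ratio of 1.42 whose interval included 1 (0.668 to 3.20), and only 28.9% of their 36-mers were unique. This ratio depended on the setting: it was 4.87 (1.13 to 43.9) in windows at least 90% unique, 2.41 (1.02 to 6.58) with reads not extended, and 1.0 (0.443 to 2.37) without the window after Gm24830. The 56 histone windows held 85 and 50 midpoints, a ratio of 1.10 (0.769 to 1.60). The 548 windows at other genes held 708 and 378 midpoints (1.22, 1.07 to 1.38), and the 498 windows without a gene 586 and 376 (1.01, 0.887 to 1.15). Relative to GC-matched windows of the genome, the tRNA ratio was 1.49 (1.07 to 2.09), while that of other genes was 1.08 and its interval then included 1 (0.947 to 1.22).

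**Figure D3:**
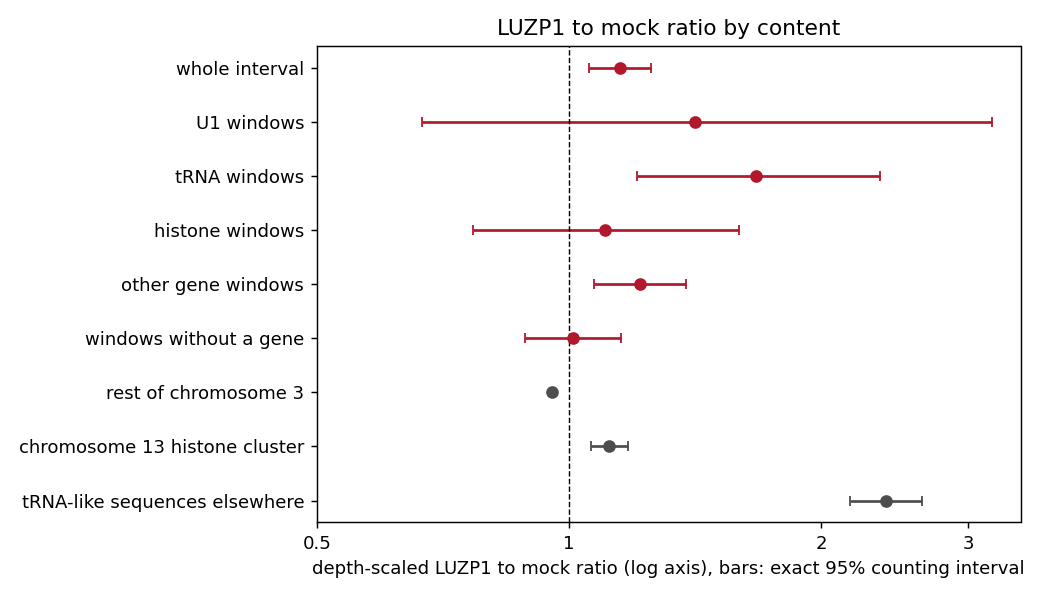
Depth-scaled LUZP1 to mock ratio (log axis, points) with the exact 95% counting interval (bars) for the cluster and its kinds of window (red) and for comparison regions (grey). The tRNA windows (1.67) lie above 1 with their whole interval, and those of U1 (1.42) and histone genes (1.10) do not.

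Few single windows could be told apart from background at this depth. Of the 1200 windows, 230 had at least 4 midpoints in the 2 libraries together. Among these, 57 were at least 2-fold higher in LUZP1 with 1 added to both scaled counts (24.8%, against 21.3% of such windows in the genome), and 46 were at least 2-fold higher in mock (20%, against 22.9%). With pairs of reads joined, 111 windows entered, of which 28 were higher in LUZP1 (25.2%, against 17.2% in the genome) and 4 in mock (3.6%, against 10.2%). Joining took LUZP1 from 4214959 reads to 3467393 fragments and mock from 2734938 to 1910626, a larger share of the mock. Many windows with 1 LUZP1 and 3 mock midpoints became 1 against 2 and fell below the minimum of 4. The drop from 46 to 4 is therefore not read as a result about LUZP1. Of the tRNA windows, 24 entered, and 9 were higher in LUZP1 (37.5%) and 3 in mock (12.5%). Part of a tRNA gene lay in 7 of the 9, but the share among all 24 was not counted, so this shows no preference for the genes. Of the U1 windows, 4 entered and 2 were higher in LUZP1 (50%), too few for the share to be read. A window needed 8 LUZP1 midpoints against 0 mock for its interval to lie above 1, but only 4 mock against 0 LUZP1 to lie below.

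By that stricter measure 1 window lay above 1 (0.435%, against 0.162% in the genome). It was chr3:96206001-96206500, which holds n-TNgtt10, with 12 LUZP1 and 0 mock midpoints, and its interval began at 1.80 (9 against 0 and 1.09 with pairs joined). It was also the window with the most LUZP1 midpoints of the cluster. The next had 8: the start of the histone gene Hist2h2bb, where the mock had 6, and n-TNgtt12, where the mock had 2. A further 7 windows had 7 LUZP1 midpoints. These were n-TNgtt4 (2 mock), n-THgtg8 (3 mock), the downstream side of the U1 copy Gm24830 (0 mock), a window in the non-coding gene Gm15441 (2 mock) and 3 windows without a gene (0 mock in each).

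In 5 windows the interval lay below 1 (2.17%, against 7.04% in the genome). The lowest was chr3:96025001-96025500 at the start of the histone gene Hist2h2be, with 0 LUZP1 and 6 mock midpoints and an interval that ended at 0.551. With pairs joined it had 0 against 4 and its interval ended at 0.835. The other 4 each had 0 LUZP1 and 4 mock midpoints, and with pairs joined their intervals included 1. They lay in Sv2a, a synaptic vesicle protein gene, beside the glutamine tRNA gene n-TQctg3, and at 2 places without a gene. The most mock midpoints, 7 against 6 LUZP1, fell in the window of the glycine tRNA gene n-TGtcc7. The following highest mock counts were the 6 at each of Hist2h2be and Hist2h2bb and the 5 at each of a window in Gm15444, one in Lix1l, one beside n-TNgtt10 and a pair without a gene.

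At the tRNA genes, reads in the gene and 500 bp on each side separated the set into genes with and without unique sequence. Both libraries had 0 reads at 8 of the 25 genes, whose flanks held no unique 36-mer. The other 17, with 78.5% to 100% unique flanks, ranged from 1 to 14 LUZP1 midpoints (median 8) and from 0 to 9 mock midpoints (median 2). Scaled LUZP1 counts were higher at 13 of these 17 (76.5%) and mock counts at 4, and the share was near that of tRNA-like sequences elsewhere in the genome (77.2%). Flanks of neighbouring genes overlap, and with each read counted a single time the 25 genes held 114 LUZP1 and 39 mock midpoints, a ratio of 1.90 (1.31 to 2.80).

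**Figure D4:**
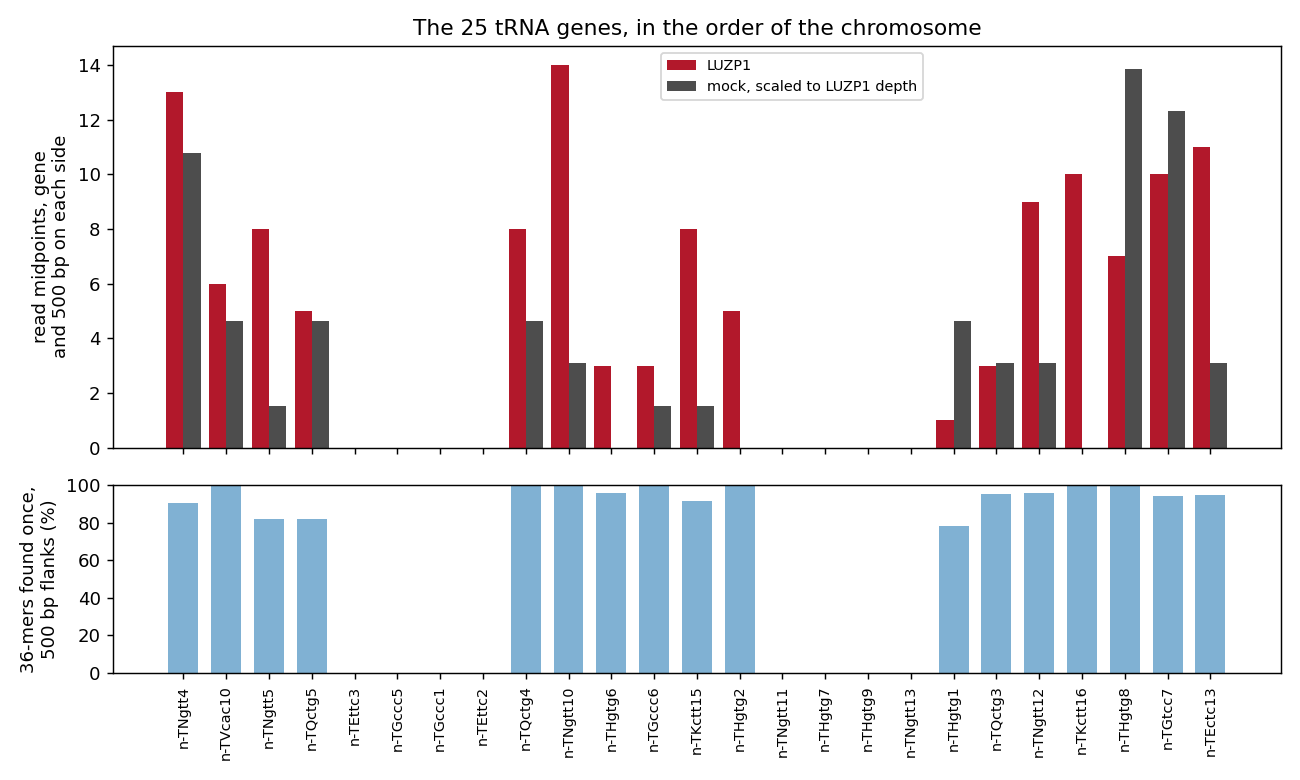
Read midpoints in each of the 25 tRNA genes and 500 bp on each side (top: LUZP1, red; mock scaled to LUZP1 depth, grey; 1 library each) and the share of unique 36-mers in the flanks (bottom, percent). The 8 genes without bars have flanks with no unique 36-mer, and n-TNgtt10 has the most LUZP1 midpoints, 14.

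The asparagine and lysine tRNA genes, picked by their values from the anticodon kinds, had summed counts with an interval above 1. Both intervals overlapped that of the histidine genes (0.384 to 2.0), so the counts do not separate these kinds from it. At the 6 genes for asparagine (anticodon GTT) LUZP1 had 44 and mock 12 midpoints, a ratio of 2.38 (1.24 to 4.95). This is close to the ratio of tRNA-like sequences elsewhere in the genome (2.39, 2.17 to 2.64). In order along the chromosome, the 4 of them with reads had 13 against 7 (n-TNgtt4), 8 against 1 (n-TNgtt5), 14 against 2 (n-TNgtt10) and 9 against 2 (n-TNgtt12). Scaled LUZP1 counts were thus higher at each of the 4. Taken alone, n-TNgtt10 had a ratio of 4.54 with an interval just above 1 (1.04 to 41.2), but with pairs of reads joined it had 11 against 1 and the interval included 1 (0.881 to 261). At the 2 identical lysine genes (anticodon CTT) the counts were 8 against 1 (n-TKctt15) and 10 against 0 (n-TKctt16). Together they gave 18 against 1, a ratio of 11.7 with a wide interval (1.84 to 487), and the interval of n-TKctt16 alone began at 1.45. These 2 genes, n-TNgtt10 and n-TKctt16, were the 2 of 17 with an interval above 1 (11.8%, against 17.6% elsewhere in the genome), and 0 lay below (0.321% elsewhere). With pairs joined, n-TKctt16 was the 1 of 17 above 1.

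For the histidine tRNA genes the interval included 1. Across the 6 genes (anticodon GTG) LUZP1 had 16 and mock 12 midpoints, a ratio of 0.865 (0.384 to 2.0). The counts ran from 5 against 0 at n-THgtg2 and 3 against 0 at n-THgtg6 to 1 against 3 at n-THgtg1 and 7 against 9 at n-THgtg8. The last 2 of these lay on the mock side, although n-THgtg6 and n-THgtg8 have the same sequence. At n-THgtg8 the mock reads lay upstream, with 7 of its 9 there against 1 of the 7 LUZP1 midpoints. Much of that stretch lies just after n-TGtcc7, which had 10 against 8 midpoints, with 5 LUZP1 and 0 mock midpoints inside the gene. The flanks of n-THgtg8 and n-TGtcc7 overlap and share mock midpoints, so the 2 are not separate results. Beside these, the glutamate gene n-TEctc13 had 11 against 2, a ratio of 3.57 whose interval included 1 (0.779 to 33.1). Its flank covers n-TGtcc7, so the 5 LUZP1 midpoints inside n-TGtcc7 are among these 11.

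The remaining kinds had few reads. The 3 glutamine genes (anticodon CTG), identical in sequence, had 5 against 3 (n-TQctg5), 8 against 3 (n-TQctg4) and 3 against 2 (n-TQctg3), together a ratio of 1.3 (0.524 to 3.50). The valine gene n-TVcac10 had 6 against 3. Of the 3 glycine genes with anticodon CCC, n-TGccc6 alone had reads, 3 against 1. The 2 glutamate genes with anticodon TTC, which lie in the longest inverted repeat, had none.

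Relative to the tRNA gene start, LUZP1 reads were most frequent in the step that holds the gene. Summed over the 25 genes, the first 250 bp from the start held 54 LUZP1 and 15 mock midpoints, a ratio of 2.34 (1.3 to 4.46). The 250 bp before the start held 28 and 8 (2.27, 1.01 to 5.77). From 250 to 500 bp after the start the counts were 22 and 9 (1.59, 0.702 to 3.91), and from 500 to 750 bp they were 12 and 17, a ratio of 0.458 (0.200 to 1.02). From 750 to 500 bp before the start the counts were 21 and 5 (2.73, 1.0 to 9.25). From 750 to 1000 bp after it they were 13 and 3 (2.81, 0.773 to 15.4). The ratio was thus not highest in the step that holds the gene. A later step, 1500 to 1750 bp after the start, also had an interval above 1, with 25 against 2 midpoints (8.11, 2.02 to 70.7). Far steps of the other kinds left out 1 as well. At the histone genes the farthest step before the start held 10 against 0, with an interval that began at 1.45. At the U1 copies the step from 1500 to 1750 bp held 0 against 6, with an interval that ended at 0.551. Steps of neighbouring genes overlap, so some reads enter more than 1 step.

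**Figure D5:**
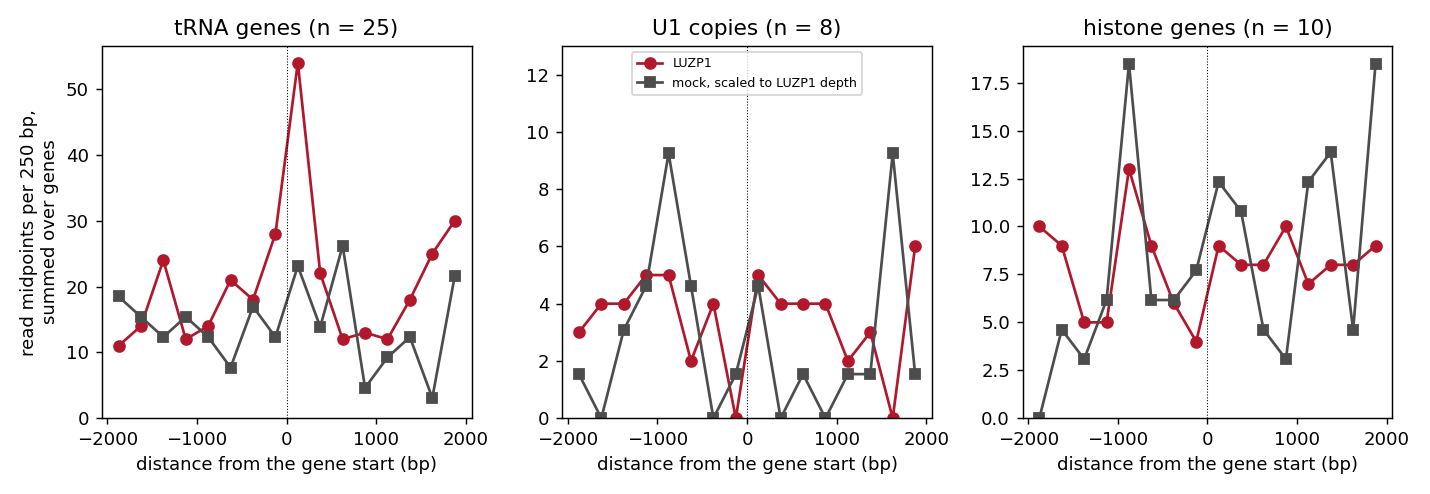
Read midpoints in 250 bp steps from 2000 bp before to 2000 bp after the gene start, summed over the tRNA genes, U1 copies and histone genes (LUZP1, red; mock scaled to LUZP1 depth, grey; 1 library each; vertical scales differ). LUZP1 reaches 54 midpoints in the first step of the tRNA genes, against 15 mock midpoints (23.1 scaled), and at the histone genes 9 against 8 (12.3 scaled).

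The tRNA genes of the cluster were set beside 346 tRNA-like sequences found elsewhere in the genome by the same search. The RefSeq table names 408 nuclear tRNA genes in the genome as a whole. Within 500 bp of the sequences elsewhere LUZP1 had 1919 and mock 521 midpoints, a ratio of 2.39 (2.17 to 2.64). The cluster's ratio was 0.794 times this (0.540 to 1.19), so the counts did not separate the tRNA genes of the cluster from the others. For the first 250 bp from the start the ratio elsewhere was 3.39 (2.89 to 4.01), and the cluster's was 0.689 times that (0.373 to 1.34).

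Of the 8 U1 copies, Gm24830 had nearly all the reads. It had 14 LUZP1 and 3 mock midpoints in the gene and 500 bp on each side, a ratio of 3.03 (0.845 to 16.4). Its downstream side, 98.4% unique, held 8 against 1, the gene itself 5 against 2 and the upstream side 1 against 0. Gm24136, whose flanks are nearly all unique, had 1 against 2 midpoints. Gm25890 had 2 against 0. The other 5 (Rnu1b1, Rnu1b2, LOC115489800, Rnu1b6 and Gm22614) had no reads, and their flanks were 1.9% to 5.6% unique. A comparison of U1 copies with each other therefore rested on Gm24830 and Gm24136, 97.0% identical in sequence, and their intervals overlapped (0.845 to 16.4 and 0.00550 to 6.23).

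The authors' deposited peak list places 1 of its 47 LUZP1 entries in the cluster, at chr3:96132459-96132952. The 494 bp entry covers the last 55 bp of Gm24830 and 439 bp past its end. It held 7 LUZP1 and 0 mock midpoints, and its interval began at 0.935. Counted by any overlap of the extended reads, it held 13 against 2, a ratio of 4.22 (0.955 to 38.5). By these counts it had fewer LUZP1 midpoints than the n-TNgtt10 window, which is not in the list. The listed peaks were repeat masked and filtered by length, so absence from the list does not show that no peak was called there.

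At the starts of the histone genes no excess of LUZP1 reads was detectable at this depth. Within 500 bp of the 10 starts, with each read counted a single time where stretches overlap, LUZP1 had 25 and mock 19 midpoints, a ratio of 0.854 (0.452 to 1.64). Of the 9 genes with reads in the gene and 500 bp on each side, scaled counts were higher with LUZP1 at 4 and with mock at 5, and for 0 of the 9 did the interval leave out 1. These genes are not all separate: the 5 mock midpoints of Hist2h2ac are also among the 11 of Hist2h2be, and its 5 LUZP1 midpoints are among the 7 of Hist2h2ab. Hist2h2bb, an H2B gene with a long annotated transcript, had the most reads, 30 against 14 (1.39, 0.715 to 2.84). The H4 gene Hist2h4 had 12 against 6, and the H2A gene Hist2h2ab had 7 against 0, with an interval that began at 0.935. On the mock side, the H2B gene Hist2h2be had 8 against 11 (0.472, 0.165 to 1.29), the H2A gene Hist2h2ac had 5 against 5 and Hist2h3c2 3 against 5. The H3 genes Hist2h3b and Hist2h3c1 had 6 against 4 and 9 against 6. The near-identical H2A genes Hist2h2aa1 and Hist2h2aa2 had 0 against 0 and 1 against 0, with 0 and 2.42% unique 36-mers in the gene.

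Among the 34 other genes of the cluster, 28 had a read in the gene body, and 4 of these had an interval above 1 and 0 below (against 6.82% and 3.73% of gene bodies with reads in the genome). The non-coding gene Gm17690 had 26 LUZP1 and 4 mock midpoints (4.22, 1.46 to 16.6). It overlaps Mtmr11 on the opposite strand, and ChIP reads carry no strand of transcription, so most of its reads are also those of Mtmr11. With Sf3b4 it shares only a short end: Gm17690 ends at 95976337 and Sf3b4 starts at 95976255. Sf3b4, a subunit of the splicing factor that recognises branch points, had 18 against 3 (3.89, 1.14 to 20.6). Ankrd35, an ankyrin repeat gene, had 58 against 19 (1.98, 1.16 to 3.52). Polr3c, a subunit of RNA polymerase III, had 57 against 22 (1.68, 1.01 to 2.89). The other RNA polymerase III subunit gene of the interval, Polr3gl, had 44 against 23, and its interval included 1 (1.24, 0.734 to 2.15). With 500 bp on each side included, the intervals of Sf3b4 (0.846 to 5.01) and Polr3c (0.977 to 2.68) already included 1. Those of Gm17690 (1.65 to 18.4) and Ankrd35 (1.05 to 2.98) still lay above 1. With pairs of reads joined as well, the interval of Gm17690 lay above 1 (1.21 to 21.1). Those of Sf3b4 (0.896 to 8.20), Ankrd35 (0.859 to 2.94) and Polr3c (0.838 to 2.88) did not.

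The coding genes outside these had ratios on both sides of 1. Of the 22 coding genes, 21 had reads in the gene, and the ratio was above 1 at 13 and below at 8. Genes with an interval including 1 were, among others, Otud7b (126 against 91) and Rnf115 (149 against 78), both counted over their whole length beyond the ends of the interval, Mtmr11 (35 against 17), Sv2a (46 against 26), Bola1 (7 against 2) and Fcgr1 (25 against 21), which encodes an Fc receptor. Further along these were BC107364 (25 against 24), Hfe2 (12 against 2), which encodes hemojuvelin, Txnip (18 against 13), Gm16253 (10 against 11), Ankrd34a (17 against 6) and Lix1l (65 against 45). Towards the right end lay Rbm8a (7 against 11), an exon junction complex gene, Itga10 (50 against 25), Pias3 (25 against 10) and Nudt17 (6 against 4). Rpl21-ps11 had no midpoint in the gene. The start of Otud7b lies outside the interval. Within 500 bp of the other 21 coding starts, with the reads shared by Polr3c and Rnf115 counted a single time, LUZP1 had 61 and mock 40 midpoints, a ratio of 0.989 (0.653 to 1.51).

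At gene starts, 1 of the 34 other genes had an interval above 1 and 1 below. Above 1 lay 4930477E14Rik, a non-coding gene that runs away from n-TNgtt10, with 13 against 0 midpoints within 500 bp of its start and an interval that began at 1.98. Its start lies directly before the printed run that leads to n-TNgtt10, and its 13 midpoints are among the 14 of that tRNA gene with its flanks, so the 2 are not separate results. Below 1 lay Rpl21-ps11, with 0 against 4 and an interval that ended at 0.983. These 4 are the mock midpoints of a window without a gene given above as below 1, and with pairs of reads joined they were 2, with an interval up to 2.93 that included 1. The telomerase RNA gene, which also lies among the tRNA genes, had 2 against 0 midpoints in the gene and 500 bp on each side.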

How the data were processed

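The authors deposited mapped reads of 36 bp, 1 line per read with a count of 1, and a list of LUZP1 peaks with positions alone. Per the series' design text, an Illumina Genome Analyzer II was used and reads were placed on mm9 by Eland with at most 1 mismatch. Peaks were called with MACS, kept at 100 to 1000 bp, repeat masked and annotated with Ensembl 57, per the same text. For tool versions and the mock's role in peak calling, the sources used here say nothing. No 2 reads of a library shared start and strand, which caps the height of narrow peaks.

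From these counts, midpoints, ratios and exact intervals were computed with Python 3.11.15, NumPy 2.4.6 and SciPy 1.17.1. The genome was NCBIM37 (mm9), from which all sequences and 36-mers were read, with GENCODE genes of Ensembl 65. RefSeq (GRCm38.p6) supplied names of tRNA genes and U1 copies by order alone, since its build differs. For all 8 U1 copies order and length matched. The A-box pattern was widened for histidine genes after comparison with RefSeq names, without reference to reads. Each window belongs to 1 class in the order U1, tRNA, histone, other gene, no gene. Pairs were opposite-strand reads 63 to 107 bp apart (LUZP1, modal 85) or 48 to 186 bp (mock, modal 162). Genes named were all U1 copies, tRNA genes, histone genes and other coding genes (1 is not reported here), the windows with the most reads of each library and those whose interval left out 1; the non-coding genes described were chosen after their values were seen. The interval, members and lists were chosen with earlier results of these data known. In simulated data with independent reads, 196 of 200 windows planted at 10-fold were found, a change larger than the class ratios reported here. The 25 tRNA sequences planted came from the same search, so finding all 25 again does not show how many genes it misses.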

Additional observations from a re-analysis of the deposited data

How the results depend on the processing

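Settings tried were the extension of reads, the scaling, joined pairs, the window grid and size, unique sequence, GC content, the flank, the fold and the minimum of midpoints. Chosen after seeing the data were leaving out a class's top window and the settings for tRNA-like sequences elsewhere. No ratio crossed from an interval above 1 to below 1 or the reverse under the settings run. The tRNA ratio ranged from 1.48 to 2.43, the histone ratio from 0.955 to 1.25, that of other genes from 1.08 to 1.27 and that of windows without a gene from 0.920 to 1.06. With GC content matched, the cluster's ratio was 1.03. Without flanks the tRNA ratio rose to 2.43, and without its top window it was 1.52 (1.09 to 2.15). The U1 ratio ranged from 1.0 without the Gm24830 window with 7 LUZP1 midpoints to 4.87 (1.13 to 43.9; 15 against 2 midpoints) in windows at least 90% unique, and with unextended reads it was 2.41 (1.02 to 6.58). It thus rests on 1 locus. For tRNA-like sequences elsewhere the GC-matched ratio was 2.17.

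Counts of windows moved most, and with pairs joined many windows fell below the minimum of midpoints. With pairs joined, 28 windows were higher in LUZP1 and 4 in mock, and the interval lay above 1 in 1 window (n-TNgtt10, 9 against 0, beginning at 1.09) and below in 1 (Hist2h2be, 0 against 4, ending at 0.835). At a fold of 3, 44 were higher in LUZP1 and 10 in mock. A minimum of 8 midpoints left 2 and 2, and no minimum gave 230 and 182. The genome's shares were not computed at these folds and minima, so these counts show only how far the setting moves them. With pairs joined, n-TNgtt10 with its flanks had 11 against 1 and its interval included 1 (0.881 to 261), while that of n-TKctt16 began at 1.09. No paired analysis was possible because each group has 1 library. Depth, 1 to 3 reads per kb, limits what single genes can show, and 8 tRNA genes and 5 U1 copies, in repeated sequence, had no reads.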
